A study of Mus musculus with 2 samples.

Results

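The 40 genes described here act in the translocation of proteins into the endoplasmic reticulum (ER), in their folding there and in the response to ER stress. They were picked by name, for what their proteins do, out of 27998 genes in each count matrix. All 40 were found, 10 of them for the signal recognition particle and translocon, 5 for the signal peptidase, 5 for the oligosaccharyl transferase, 15 for chaperones and folding enzymes and 5 for the stress response and degradation. Single cells were taken from the mouse neurohypophysis (NH), the pituitary lobe where hypothalamic axons release their hormones, in 2 pools of 5 male C57/BL6 mice at 3 months of age. No genotype, drug or time was varied, and the mice of a pool cannot be told apart, so that both pools are replicates of a single condition and every comparison was between cell types. The large types were pituicytes (the glia of the NH, 196 cells), IL cells (intermediate lobe cells, which make the hormone precursor POMC, 148 cells), macrophage/microglia (95 cells) and T-cell like cells (42 cells). The small types were epithelial-like cells (23 cells), vascular endothelia (13 cells) and vascular and leptomeningeal cells (VLMC, 11 cells).

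A protein bound for secretion or for a membrane is met at the ribosome by the signal recognition particle and threaded into the ER through the Sec61 channel. There the signal peptidase removes its signal peptide, the oligosaccharyl transferase adds N-linked sugars, and chaperones and disulfide isomerases help it to fold. When unfolded protein builds up, sensors in the ER membrane switch on a stress program through the transcription factors XBP1, ATF4 and ATF6, which raises chaperones and the machinery that removes misfolded protein. Cells that secrete peptide hormones, such as IL cells, are known for a well-developed ER.

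The kept cells held 699676 UMIs in pool 1 and 726706 in pool 2, a UMI (unique molecular identifier) being a tag that counts 1 captured mRNA molecule. Summed per pool and type, the counts ranged from 8491 to 281271 UMIs, and T-cell like cells, the shallowest of the large types, had 54928 and 29088. Levels are UMIs per 1000000 UMIs of a sum (CPM). For pituicytes, IL cells, macrophage/microglia and T-cell like cells, all 8 markers of each list were highest in their own type. So were all 7 of vascular endothelia and all 6 of VLMC, but only 6 of 8 for epithelial-like cells. Several markers, such as *Col25a1* and *Scn7a* of pituicytes, were selected by the study from these same clusters. For those, being highest in their own type is no independent check of the names. The VLMC sum also held 17470 CPM of 5 oligodendrocyte markers, against at most 76.5 CPM in any other type, and the epithelial-like sum held 10790 CPM of 6 anterior lobe endocrine markers beside 4961 CPM of its own 8. The median mitochondrial share per cell was 17.2% and 12.5% in pituicytes of pools 1 and 2, 10.4% and 9.37% in IL cells and under 5% in both immune types. With cells under 10% alone, *Hyou1* was the 1 member called between IL cells and pituicytes (log2 fold change 2.15, edgeR adjusted p = 0.00557), over 49 pituicytes and 30 members tested.

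Promoter windows of RefSeq (GRCm38.p6, 250 bases before to 50 after a gene start) were at hand for 33 of the 40 genes. The ER stress response element (ERSE), searched as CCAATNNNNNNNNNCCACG on both strands, is the site through which ATF6 and XBP1 are known to act on chaperone genes. It lay in 39 of all 32851 windows (0.119%), and 7 of those genes were members. They are shown because their levels are compared below, with the element in capitals, each stretch ending upstream of the RefSeq gene start.
Hspa5, chr2:34772020-34772048, + strand: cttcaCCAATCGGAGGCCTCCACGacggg
Hsp90b1, chr10:86705513-86705676, − strand: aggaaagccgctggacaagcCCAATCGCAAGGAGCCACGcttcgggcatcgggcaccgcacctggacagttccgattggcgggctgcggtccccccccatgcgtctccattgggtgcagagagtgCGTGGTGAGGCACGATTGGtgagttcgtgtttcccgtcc
Dnajc3, chr14:118937807-118937865, + strand: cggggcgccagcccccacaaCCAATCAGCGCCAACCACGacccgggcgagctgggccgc
Creld2, chr15:88819500-88819558, + strand: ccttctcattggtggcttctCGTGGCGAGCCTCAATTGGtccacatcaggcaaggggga
Pdia6, chr12:17266471-17266529, + strand: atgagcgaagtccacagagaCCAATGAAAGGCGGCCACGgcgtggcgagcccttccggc
Calr, chr8:84847055-84847113, − strand: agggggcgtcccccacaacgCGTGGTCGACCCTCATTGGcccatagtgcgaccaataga
Canx, chr11:50325780-50325838, − strand: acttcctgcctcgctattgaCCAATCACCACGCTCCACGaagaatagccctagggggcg
Each stretch reads 5′ to 3′ on the strand of its gene. The element of *Hspa5* lies in an exon of a longer *Hspa5* transcript of GENCODE, so only 5 bases are shown on either side. A related element, ERSE-II, searched as ATTGGNCCACG on both strands, lay in 12 windows (0.0365%). The members among them were *Dnajb11*, where it lay past the gene start, and *Herpud1*, shown here with the element in capitals.
Herpud1, chr8:94386357-94386407, + strand: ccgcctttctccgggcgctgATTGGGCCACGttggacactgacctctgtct
No member window held both elements. The XBP1 site TGACGTGG lay in 0.676% of windows and in none of a member. An ATF4 element searched as TGATGNAA lay in 3.97% of windows and, among members, in that of *Herpud1*. These matches of letters say nothing of binding.

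Among the large types, the summed level of the 40 genes was highest in IL cells and pituicytes. It was 8330.0 and 9938 CPM in IL cells of pools 1 and 2, and 8436 and 9358 CPM in pituicytes, so that these types overlapped. Macrophage/microglia had 6564 and 7061 CPM, and T-cell like cells had 5371 and 6119 CPM, both below the other 2 large types in each pool. Epithelial-like cells had 8956 and 7715 CPM, VLMC had 9068 and 7087 CPM, and vascular endothelia had 6698 and 5365 CPM, with 67 to 456 UMIs of the members behind each of these 6 values. The levels of IL cells rest on totals of which *Pomc* alone took 119400 and 89660 CPM. Without *Pomc* in the totals, IL cells had 9460.0 and 10920.0 CPM and pituicytes 8470.0 and 9387. The 2 types then no longer overlapped, but only by the narrow gap of 9460.0 to 9387 CPM. Mitochondrial UMIs stayed in these totals. Their median share per cell was 17.2% and 12.5% in pituicytes against 10.4% and 9.37% in IL cells, and totals without them were not tested. The share of a cell's UMIs that fell on the 40 genes had a median of 0.862% in pituicytes and 0.851% in IL cells, while T-cell like cells had 0.542%, macrophage/microglia 0.645% and the 11 VLMC 0.891%.

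**Figure D1:**
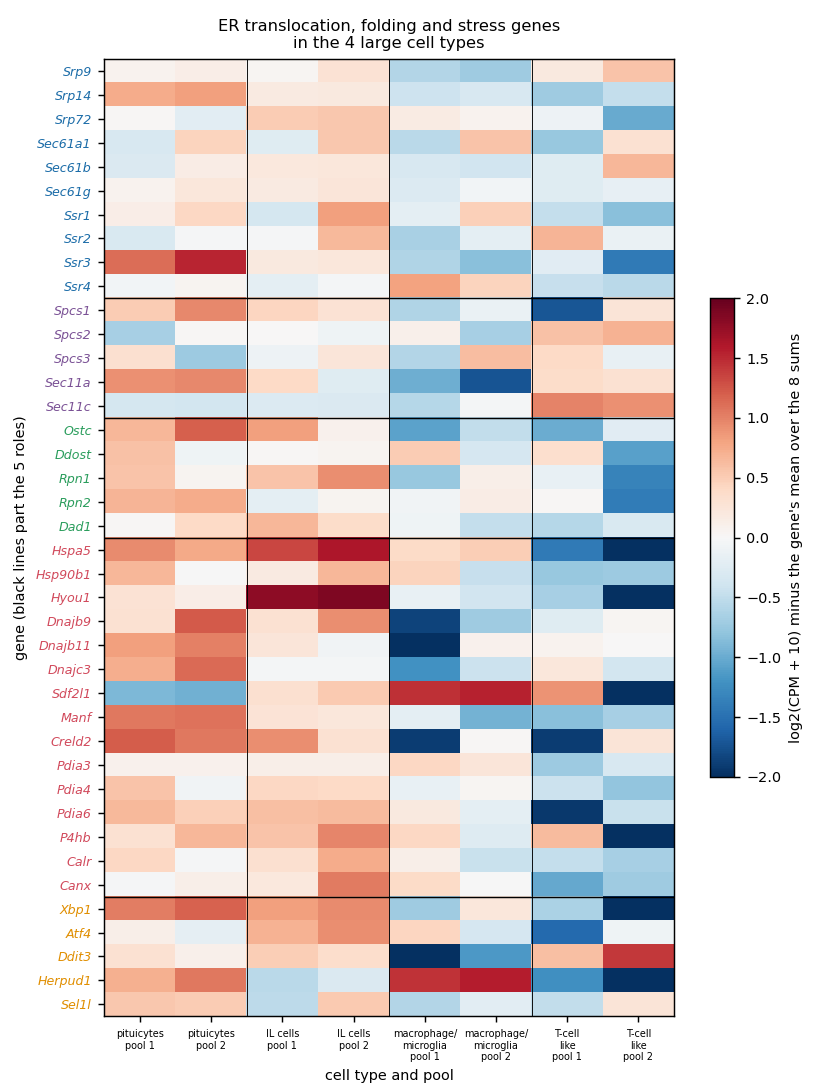
Level of each of the 40 genes (rows, in the order of their roles) in the 8 sums of the 4 large types (columns), as log2(CPM + 10) minus the mean of the gene over the 8 sums, with red above and blue below that mean. *Hyou1* and *Hspa5* were highest in both IL sums, *Ssr3* and *Manf* in both pituicyte sums, and *Herpud1* and *Sdf2l1* in both macrophage/microglia sums.

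Of the 40 genes, 38 passed the filter on low counts and *Spcs3* and *Dnajb11* did not. Between IL cells and pituicytes few members differed. In IL cells 2 of the 38 were higher, *Hyou1* and *Sdf2l1*, beside 7.98% of all 4510 genes tested, and 4 were lower, *Ssr3*, *Herpud1*, *Dnajc3* and *Manf*, beside 13.0% of all genes. The values of the 2 types did not overlap for any of these 6 genes, but the genes were called on these same values, so this adds no support. The median log2 fold change was 0.07 over the members and -0.12 over all genes. Shares of the members, 5.26% higher and 10.5% lower, were near or below those of all genes. With DESeq2 none of the 6 genes was called, beside 2.33% higher and 3.46% lower of all genes. With a mitochondrial share under 10%, *Hyou1* alone of 30 members tested was called, beside 4.57% higher and 9.83% lower of all genes.

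Against the mean of the other 3 large types, pituicytes were higher in 13 of 38 members (34.2%, beside 21.3% of all genes) and lower in 1 (2.63%, beside 6.08%). IL cells were higher in 7 (18.4%, beside 17.1% of all genes) and lower in 0 (beside 11%), with 0 also under DESeq2 and 0 at an unadjusted p under 0.05. Macrophage/microglia were higher in 3 (beside 14.7% of all genes) and lower in 3 (beside 4.5%). T-cell like cells were higher in 1, *Sec11c* (beside 9.98%), and lower in 1, *Hspa5* (beside 4.94%), or lower in 2 with pool as a block (beside 4.55%), *Hsp90b1* being added. Median log2 fold changes of members and of all genes were 0.34 and 0.36 in pituicytes, 0.40 and 0.20 in IL cells, -0.38 and -0.11 in macrophage/microglia, and -0.73 and -0.46 in T-cell like cells. These 4 comparisons share their samples, so their counts are not independent of each other.

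T-cell like cells held 3 or fewer UMIs of several members, and they enter each of the other 3 means. With them left out of the mean, an alternative added after seeing the data, 7 members were higher in pituicytes (*Srp14*, *Ssr3*, *Ostc*, *Sec11a*, *Dnajc3*, *Manf* and *Dnajb9*, beside 15.8% of all genes) and *Sdf2l1* was lower (beside 5.19%). In IL cells *Hspa5* and *Hyou1* were then higher (beside 12.8% of all genes) and *Herpud1* lower (beside 12.5%). In macrophage/microglia *Herpud1* and *Sdf2l1* were higher (beside 17.4%), and 10 members were lower (beside 18.2%, against 4.5% with T-cell like cells in the mean).

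The study also set a fold limit, whose log base it gives in one place as natural and in another as binary. With a natural-log fold of 1 or more required as well, *Herpud1* alone of the 4 stayed lower in IL cells than in pituicytes (10.8% of all genes) and *Hyou1* and *Sdf2l1* higher (6.08%). Pituicytes were higher in *Ssr3*, *Manf* and *Creld2* (16.8% of all genes) and lower in *Sdf2l1* (3.53%). IL cells were higher in *Hspa5* and *Hyou1* (13.6%) and lower in none (7.47%). Macrophage/microglia were higher in *Herpud1* and *Sdf2l1* (13.3%) and lower in *Sec11a*, *Ddit3* and *Dnajb9* (3.44%). T-cell like cells were higher in none (7.98%) and lower in *Hspa5* (4.61%). A binary limit would also have kept *Ssr3* and *Dnajc3* between IL cells and pituicytes.

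**Figure D2:**
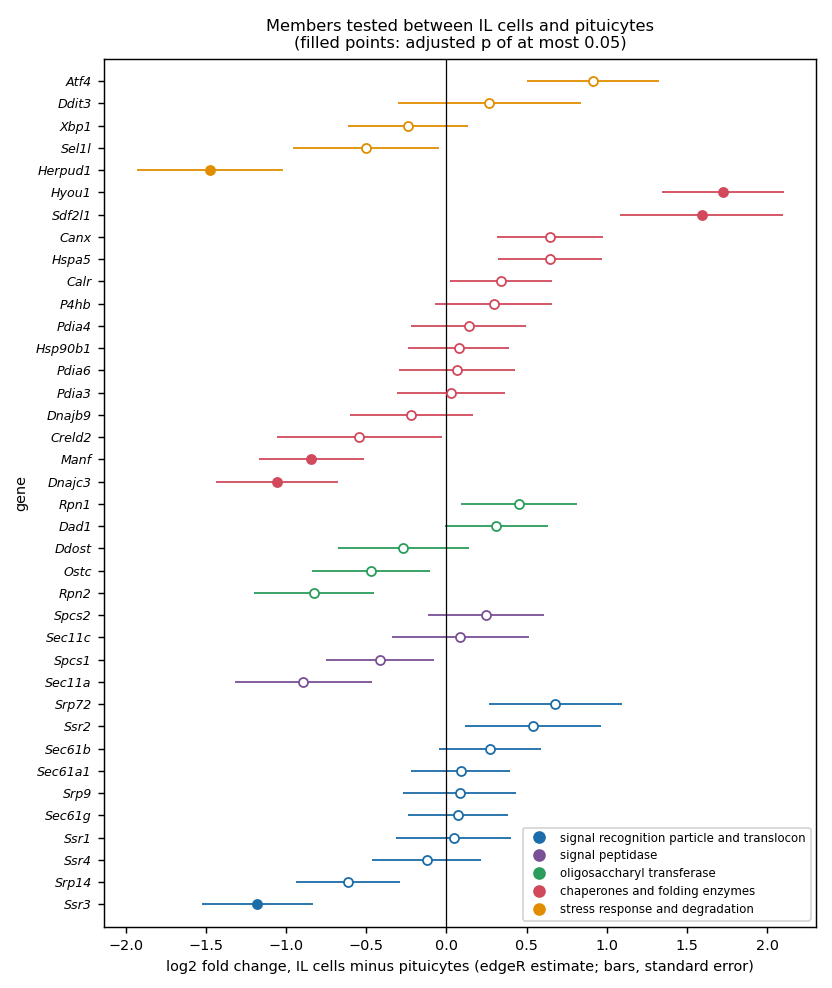
Log2 fold change of IL cells minus pituicytes for the 38 members tested (points, edgeR estimates; bars, standard error), coloured by role and sorted within it, with filled points at an adjusted p of at most 0.05. The 6 filled points are *Hyou1* and *Sdf2l1* on the right and *Manf*, *Dnajc3*, *Ssr3* and *Herpud1* on the left of 0.

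Of the signal recognition particle and translocon genes, 1 of 10 was called between IL cells and pituicytes. It was lower in IL cells, beside 13.0% of all genes, and the median log2 difference of the 10 was 0.08. *Sec61g*, the small gamma subunit of the channel, was at 887 and 986 CPM in pituicytes, 964 and 1006 in IL cells, 699 and 816 in macrophage/microglia and 710.0 and 756 in T-cell like cells of pools 1 and 2. *Sec61b*, its beta subunit, was at 369 and 501 CPM in pituicytes, 523 and 529 in IL cells, 361 and 343 in macrophage/microglia and 382 and 722 in T-cell like cells. Neither was called in any of the 5 comparisons.

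The gene called between IL cells and pituicytes was *Ssr3*, the gamma subunit of the translocon-associated protein complex, which assists the channel. It was at 246 and 327 CPM in pituicytes, 124 and 128 in IL cells, 67.7 and 55.6 in macrophage/microglia and 91.0 and 34.4 in T-cell like cells. Both pituicyte values lay above all others of the large types. IL cells were 2.26-fold lower than pituicytes (log2 fold change -1.18, SE 0.35, adjusted p = 0.00488), and pituicytes were 3.47-fold above the mean of the other 3 types (log2 fold change 1.80, SE 0.34, adjusted p = 1.38e-06). The call between IL cells and pituicytes was not made with DESeq2 or under the 10% mitochondrial limit. The subunits *Ssr1*, *Ssr2* and *Ssr4* of the same complex were not called between IL cells and pituicytes, with log2 differences of 0.04, 0.54 and -0.12. *Ssr4*, the delta subunit, was higher in macrophage/microglia, at 451 and 352 CPM, than in pituicytes at 246 and 264, IL cells at 220.4 and 248 and T-cell like cells at 182 and 172 (log2 fold change 0.86, SE 0.32, adjusted p = 0.0378). Without T-cell like cells in the mean that call was lost (log2 fold change 0.71, adjusted p = 0.0611). *Srp14*, which binds the Alu part of the particle's RNA, was at 416 and 438 CPM in pituicytes, 277 and 280.5 in IL cells, 180.4 and 195 in macrophage/microglia and 146 and 172 in T-cell like cells. Pituicytes stood above the mean of the others (log2 fold change 1.08, SE 0.29, adjusted p = 0.00155).

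*Sec61a1*, the pore-forming subunit, separated by pool and not by type. Pool 1 and pool 2 had 815 and 1404 CPM in pituicytes, 864 and 1499 in IL cells, 699 and 1529 in macrophage/microglia and 601 and 1272 in T-cell like cells. It was also higher in pool 2 in epithelial-like cells (932 and 1201 CPM), vascular endothelia (617 and 2002) and VLMC (942 and 1590.0), so in all 7 types. Of the 4510 genes tested, 34 were at least 1.5-fold higher in pool 2 in each of the 4 large types, and *Sec61a1* was the 1 member among them. Another 8 genes were at least 1.5-fold lower, with 0 members. With 1 library per pool, animals, dissection and library cannot be told apart. No comparison between types called *Sec61a1*, and its log2 difference between IL cells and pituicytes was 0.09 (SE 0.31).

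**Figure D3:**
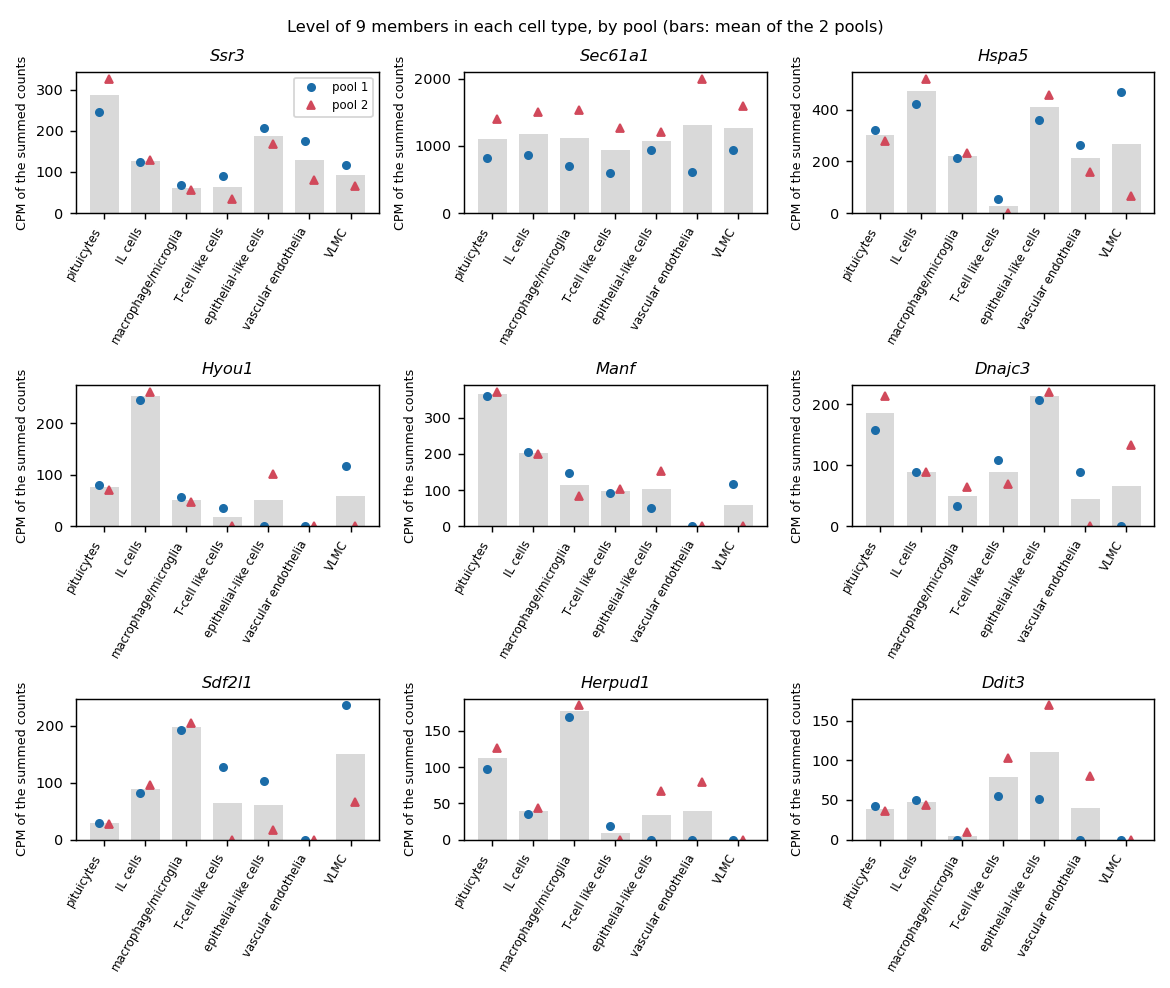
Level in CPM of the summed counts of 9 members in the 7 cell types, with blue circles for pool 1, red triangles for pool 2 and grey bars for the mean of both pools. *Hyou1* stands out in IL cells at 245 and 261 CPM and *Manf* in pituicytes at 361 and 371 CPM, while *Sec61a1* separates by pool in all 7 types.

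Of the signal peptidase genes, 4 of 5 were tested and none was called between IL cells and pituicytes, beside 7.98% higher and 13.0% lower of all genes. *Spcs2*, an accessory subunit, was at 102 and 170 CPM in pituicytes, 167 and 156 in IL cells, 180.4 and 102 in macrophage/microglia and 255 and 275 in T-cell like cells, and was called nowhere. *Spcs1*, the smallest accessory subunit, was at 208 and 288 CPM in pituicytes, 196 and 176 in IL cells, 90.2 and 130 in macrophage/microglia and 36.4 and 172 in T-cell like cells. Pituicytes stood above the mean of the other 3 types (log2 fold change 1.03, SE 0.33, adjusted p = 0.00969), a call that was lost without T-cell like cells (log2 fold change 0.78, adjusted p = 0.0625).

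*Sec11a* and *Sec11c* encode the catalytic subunits that cut the signal peptide, and each complex holds either. *Sec11a* was at 110.3 and 114 CPM in pituicytes, 74.7 and 44.1 in IL cells, 72.8 and 68.8 in T-cell like cells and 22.6 and 9.27 in macrophage/microglia. Pituicytes were above the mean of the others (log2 fold change 1.44, SE 0.44, adjusted p = 0.00667) and macrophage/microglia below it (log2 fold change -2.27, SE 0.77, adjusted p = 0.0207). Only 3 UMIs lay behind the macrophage/microglia values, which gave a level 5.52-fold lower than in the other 3 types pooled, with a 95% counting interval of 1.83 to 27.2. *Sec11c* went another way. It was at 219 and 206 CPM in T-cell like cells, 80.6 and 78.9 in pituicytes, 85.3 and 84.2 in IL cells and 67.7 and 102 in macrophage/microglia. The T-cell like values, from 18 UMIs, lay above all others of the large types (log2 fold change 1.34, SE 0.49, adjusted p = 0.0439). *Sec11c* was not called there under TMM scaling, with DESeq2 or without the filter on low counts. Nor was it called under the 10% mitochondrial limit or with clustering without the members. Among small types the VLMC sums held 353 and 927 CPM of *Sec11c*, from 17 UMIs in 2 of the 11 cells.

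None of the 5 oligosaccharyl transferase genes was called between IL cells and pituicytes, beside 7.98% higher and 13.0% lower of all genes. *Dad1*, a subunit first known as a defender against cell death, was at 306 and 398 CPM in pituicytes, 480.0 and 393 in IL cells, 282 and 213 in macrophage/microglia and 200.3 and 241 in T-cell like cells. Its call in IL cells against the mean of the others (log2 fold change 0.72, SE 0.28, adjusted p = 0.0418) was lost without T-cell like cells (adjusted p = 0.137). *Rpn2*, a ribophorin of the same complex, was at 178 and 185 CPM in pituicytes, 92.4 and 112 in IL cells, 101 and 120.5 in macrophage/microglia and 109 and 34.4 in T-cell like cells. *Rpn1*, its partner ribophorin, was at 157 and 106 CPM in pituicytes, 156 and 204 in IL cells, 56.4 and 111 in macrophage/microglia and 91.0 and 34.4 in T-cell like cells. Against the mean of the other 3 types, *Rpn2* was higher in pituicytes (log2 fold change 0.89, SE 0.35, adjusted p = 0.0427), and *Rpn1* was higher in IL cells (log2 fold change 0.94, SE 0.36, adjusted p = 0.0316). IL and pituicyte values overlapped for *Rpn1*, and both calls were lost without T-cell like cells in the mean. *Ostc*, at 136 and 201 CPM in pituicytes and 153 and 88.2 in IL cells, was also called higher in pituicytes. That call held without T-cell like cells (log2 fold change 1.17, SE 0.38, edgeR adjusted p = 0.0138) and under the 10% mitochondrial limit, but not with DESeq2.

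Of the chaperones and folding enzymes 1 was not tested. In IL cells 2 of the 14 tested were higher than in pituicytes (beside 7.98% of all genes), 2 were lower (beside 13.0%) and 10 were not called. Their log2 differences ran from -1.06 to 1.72.

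*Hyou1* encodes GRP170, which helps BiP to exchange its nucleotide. It was at 245 and 261 CPM in IL cells, 80.6 and 71.0 in pituicytes, 56.4 and 46.3 in macrophage/microglia and 36.4 and 0 in T-cell like cells. Both IL values were more than any other of the large types. IL cells were 3.30-fold higher than pituicytes (log2 fold change 1.72, SE 0.38, adjusted p = 6.59e-05), a call not made with DESeq2. Against the mean of the other 3 types the log2 fold change was 2.45 (SE 0.39, adjusted p = 7.22e-09), and 2.00 (SE 0.36, adjusted p = 3.34e-07) without T-cell like cells, which held 2 UMIs of it. Free RNA was gauged from near-empty barcodes of pool 1 (1 to 50 UMIs each), and *Hyou1* was at 49.2 CPM in it. That is its share of free RNA and not the amount that free RNA adds to a cell. *Pomc* was at 15750 CPM there, against 1252 in macrophage/microglia and 492 in T-cell like cells of pool 1. The part of free RNA in the *Hyou1* levels was not tested.

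*Hspa5* encodes BiP, the Hsp70 chaperone of the ER that also holds the stress sensors inactive. It was at 423 and 521 CPM in IL cells, 323 and 280.1 in pituicytes, 214 and 232 in macrophage/microglia, and 54.6 and 0 in T-cell like cells. The 4 types did not overlap in this order. IL cells stood above the mean of the other 3 types (log2 fold change 1.80, SE 0.33, adjusted p = 1.05e-06), and without T-cell like cells the difference shrank but held (log2 fold change 0.86, SE 0.29, adjusted p = 0.0145). The difference between IL cells and pituicytes did not pass the test (log2 fold change 0.64, SE 0.32, adjusted p = 0.16). T-cell like cells were lower than the mean of the rest (log2 fold change -3.12, SE 0.66, adjusted p = 3.49e-05). They held 3 UMIs of *Hspa5*, a level 10.1-fold below that of the other 3 types pooled, with a 95% counting interval of 3.44 to 49.3. Epithelial-like cells, a small type, were at 362 and 457 CPM of *Hspa5* from 34 UMIs, the latter between the IL values. The near-empty barcodes had 154 CPM. Pituicytes were called higher than the mean of the others (log2 fold change 0.94, adjusted p = 0.0364), but the sign turned without T-cell like cells (log2 fold change -0.11, adjusted p = 0.879).

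*Calr* and *Canx* encode calreticulin and calnexin, the lectin chaperones that hold newly glycosylated proteins, and *Hsp90b1* encodes GRP94, the Hsp90 of the ER. *Canx* was at 270.2 and 489 CPM in IL cells, 229 and 252 in pituicytes, 304 and 232 in macrophage/microglia and 109 and 138 in T-cell like cells. *Calr* was at 416 and 565 CPM in IL cells, 446 and 327 in pituicytes, 361 and 241 in macrophage/microglia and 237 and 206 in T-cell like cells. IL values of both genes overlapped those of other types. Their calls in IL cells (log2 fold change 0.93 with adjusted p = 0.00938 for *Canx* and 0.72 with adjusted p = 0.0354 for *Calr*) were lost without T-cell like cells in the mean. *Hsp90b1* was at 395 and 553 CPM in IL cells, 556 and 343 in pituicytes, 474 and 250.2 in macrophage/microglia and 200.3 and 206 in T-cell like cells, with no call in the 5 comparisons. The protein disulfide isomerases *Pdia3*, *Pdia4*, *Pdia6* and *P4hb* differed by 0.03 to 0.29 on the log2 scale between IL cells and pituicytes and were called in none of the 5 comparisons.

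*Manf* and *Dnajc3* were the folding genes called lower in IL cells than in pituicytes. *Manf*, a small secreted protein induced by ER stress, was at 361 and 371 CPM in pituicytes, 206 and 200.4 in IL cells, 147 and 83.4 in macrophage/microglia and 91.0 and 103 in T-cell like cells. Pituicytes were 2.80-fold above the mean of the others (log2 fold change 1.49, SE 0.31, adjusted p = 2.02e-05), and IL cells were lower than pituicytes (log2 fold change -0.84, SE 0.33, adjusted p = 0.0481). That last call was lost with the 3 Scrublet doublets left out (adjusted p = 0.0503), under TMM scaling, with DESeq2, without the filter and under the 10% mitochondrial limit. *Dnajc3*, a cochaperone of BiP known as P58IPK, was at 157 and 213 CPM in pituicytes, 88.9 and 88.2 in IL cells, 33.8 and 64.9 in macrophage/microglia and 109 and 68.8 in T-cell like cells. It was 2.08-fold lower in IL cells than in pituicytes (log2 fold change -1.06, SE 0.38, adjusted p = 0.0293), which was not called under TMM scaling (adjusted p = 0.0593), with DESeq2, without the filter or under the 10% limit. Epithelial-like cells, with 17 UMIs of *Dnajc3*, were at 207.1 and 220.0 CPM, not below pituicytes. *Creld2*, another ER stress protein, had 35 UMIs in pituicytes (76.4 and 67.1 CPM) and 26 in IL cells (60.4 and 36.1 CPM), but 3 in macrophage/microglia and 1 in T-cell like cells. Its higher level in pituicytes (log2 fold change 1.72, SE 0.61, adjusted p = 0.0228) was not called without T-cell like cells (adjusted p = 0.0717).

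*Sdf2l1*, a partner of BiP and ERdj3, was low in pituicytes. It was at 29.7 and 27.6 CPM there, 81.8 and 96.2 in IL cells, 192 and 204 in macrophage/microglia and 127 and 0 in T-cell like cells. Pituicytes, IL cells and macrophage/microglia did not overlap. IL cells were 3.01-fold higher than pituicytes (log2 fold change 1.59, SE 0.51, adjusted p = 0.0108), and macrophage/microglia were above the mean of the others (log2 fold change 1.72, SE 0.41, adjusted p = 0.000325). Against the mean of the other 3 types pituicytes were lower (log2 fold change -1.94, SE 0.49, edgeR adjusted p = 0.000739). DESeq2 gave none of these *Sdf2l1* calls. Under the 10% mitochondrial limit only the call in macrophage/microglia was made. *Dnajb9*, which encodes ERdj4, had 5 UMIs in macrophage/microglia (11.3 and 37.1 CPM), against 84.9 and 170 CPM in pituicytes, 85.3 and 136 in IL cells and 54.6 and 68.8 in T-cell like cells (log2 fold change -1.85, SE 0.68, adjusted p = 0.0367). It was also called higher in pituicytes than the mean of the others. That call held without T-cell like cells (log2 fold change 1.25, SE 0.44, edgeR adjusted p = 0.0233), although pituicyte and IL values overlapped.

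The 7 genes with an ERSE in their promoter window were not all called in the same comparison, and whether they share a pattern was not tested. *Hspa5*, *Calr* and *Canx* were called higher in IL cells and *Dnajc3* and *Creld2* in pituicytes against the mean of the other large types, *Hspa5* being called in both, and *Hsp90b1* and *Pdia6* were called in neither. Of these calls, *Hspa5* in IL cells and *Dnajc3* in pituicytes stayed without T-cell like cells in the mean, and the others were lost. *Hyou1* and *Manf* had no window to search.

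Genes of the stress response and degradation were at low counts, and *Herpud1* and *Ddit3* split the types. *Herpud1*, an ER membrane protein that recruits the degradation machinery, was at 169 and 185 CPM in macrophage/microglia, 97.6 and 126 in pituicytes, 35.6 and 44.1 in IL cells and 18.2 and 0 in T-cell like cells. No 2 of these types overlapped. IL cells were 2.78-fold lower than pituicytes (log2 fold change -1.47, SE 0.46, adjusted p = 0.00816), a call not made with DESeq2. Macrophage/microglia were above the mean of the others (log2 fold change 2.19, SE 0.51, adjusted p = 0.0002), a mean that takes in 1 UMI in T-cell like cells, and without those the log2 fold change was 1.40 (SE 0.41, adjusted p = 0.00307). B and plasma cell markers in macrophage/microglia summed to 50.9 CPM over the 5 genes of the list that the matrix held, and to 0 in the other 6 types. *Ms4a1* had 4 UMIs, *Cd79b* 3, *Cd79a* 2, *Jchain* 1 and *Mzb1* 0, and their part in the *Herpud1* level was not tested.

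*Ddit3* encodes CHOP, a transcription factor of prolonged stress. It had 1 UMI in macrophage/microglia (0 and 9.27 CPM), against 42.4 and 35.5 CPM in pituicytes, 49.8 and 44.1 in IL cells and 54.6 and 103 in T-cell like cells. The macrophage/microglia level was 8.90-fold below that of the other 3 types pooled, with a 95% counting interval of 1.53 to 359 (edgeR adjusted p = 0.0278). *Atf4*, the factor that translation control of the stress response acts through, was at 124 and 148 CPM in IL cells, 80.6 and 63.1 in pituicytes, 101 and 55.6 in macrophage/microglia and 18.2 and 68.8 in T-cell like cells. Both IL values lay above the other large types (log2 fold change 1.204, SE 0.41, adjusted p = 0.0158), and the call was lost without T-cell like cells (log2 fold change 0.86, adjusted p = 0.0714). *Xbp1*, whose mRNA the sensor IRE1 splices, was at 136 and 154 CPM in pituicytes, 117 and 128 in IL cells, 33.8 and 74.1 in macrophage/microglia and 36.4 and 0 in T-cell like cells, which held 2 UMIs. Its higher level in pituicytes (log2 fold change 1.39, SE 0.44, adjusted p = 0.00844) was likewise lost without them (log2 fold change 0.80, adjusted p = 0.122). Spliced and unspliced *Xbp1* are not told apart by these counts. *Sel1l*, which steadies the degradation ligase HRD1, was called in none of the 5 comparisons.

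Shares of cells with a UMI were set beside these levels for 4 members. *Hyou1* was found in 67 of 148 IL cells (45.3%, 95% exact binomial interval 37.1 to 53.7%) and in 33 of 196 pituicytes (16.8%, 11.9 to 22.8%). IL cells are deeper, with median UMIs per cell of 3144 and 3276 in pools 1 and 2 against 1869 and 2457 in pituicytes. When 1000 UMIs were drawn from each cell, the shares were 23.0% (16.5 to 30.6%) and 7.65% (4.35 to 12.3%). *Manf* was found in 98 of 196 pituicytes and in 44.6% of IL cells, and at equal depth in 33.2% (26.6 to 40.2%) and 18.9% (13.0 to 26.2%). *Hspa5* at equal depth was found in 39.9% of IL cells and 26.0% of pituicytes, but in 2 of 42 T-cell like cells (4.76%) and 15.8% of macrophage/microglia. *Herpud1* at equal depth was found in 12.8% of pituicytes and 10.5% of macrophage/microglia, but in 1 of 42 T-cell like cells (2.38%) and 4.05% of IL cells. The interval of 5.16 to 18.5% for *Herpud1* in macrophage/microglia spans the pituicyte share, unlike the summed levels. Each large type held UMIs of these 4 members, and the part of free RNA in these shares was not tested. The intervals cover counting error only. A cell at 1000 UMIs held a UMI of 7 of the 40 genes in the median of pituicytes and of IL cells, 5 in macrophage/microglia and 4 in T-cell like cells.

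**Figure D4:**
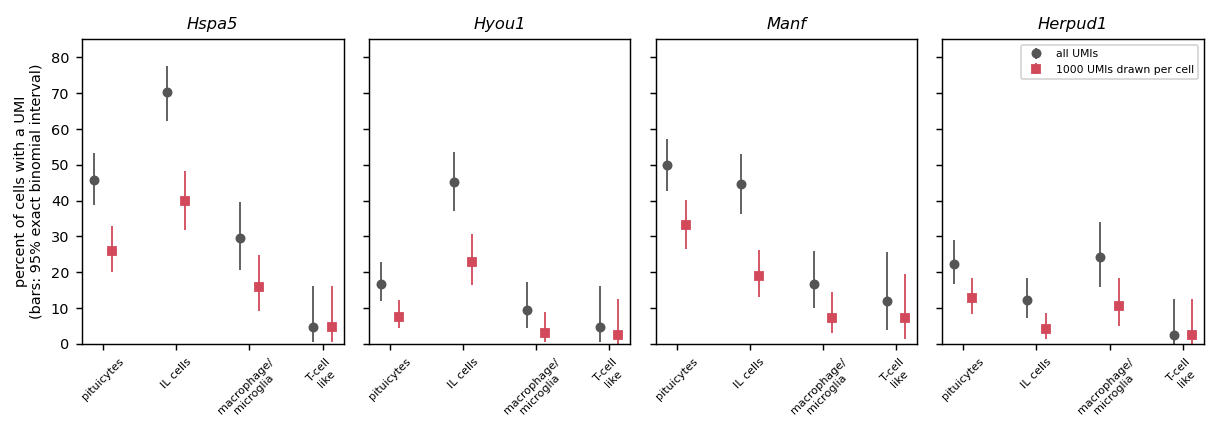
Percent of cells with at least 1 UMI of *Hspa5*, *Hyou1*, *Manf* and *Herpud1* in the 4 large types, with all UMIs (grey circles) and with 1000 UMIs drawn from each cell (red squares); bars are 95% exact binomial intervals. At equal depth *Hspa5* and *Hyou1* were most frequent in IL cells, at 39.9% and 23.0%, and *Manf* in pituicytes, at 33.2%.

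Within the types, the clusters of the study were built on these same cells, so their levels are a description with no test. The deposited cluster means are UMIs per 10000 UMIs of a cell. The 40 genes summed to 96.6 in the IL cluster named neural progenitor a and 78.3 in neural progenitor b, the widest gap within a type. Pituicyte clusters a, b and c had 89.1, 84.3 and 90.7, macrophage/microglia clusters a and b had 66.1 and 71.7, and T-cell like cells had 54.9. *Hyou1* was at 4.08 in IL cluster a and 1.88 in b. Recomputed by pool, cluster a had 346 and 365 CPM of *Hyou1* and cluster b 147 and 108, so that both pools gave the same order. *Manf* had 259.6 and 244 CPM in a and 154 and 138 in b, and *Sec61b* had 656 and 595 in a and 393 and 432 in b. *Hspa5* did not separate them, at 390 and 589 CPM in a and 456 and 423 in b. Cluster b cells were deeper, with a median of 3673 UMIs against 2984, and had a higher median mitochondrial share, 13.7% against 8.87%. The pituicyte clusters had *Manf* at 4.12, 3.11 and 4.15 and *Hspa5* at 2.90, 2.42 and 3.51 in the deposited means of a, b and c.

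**Figure D5:**
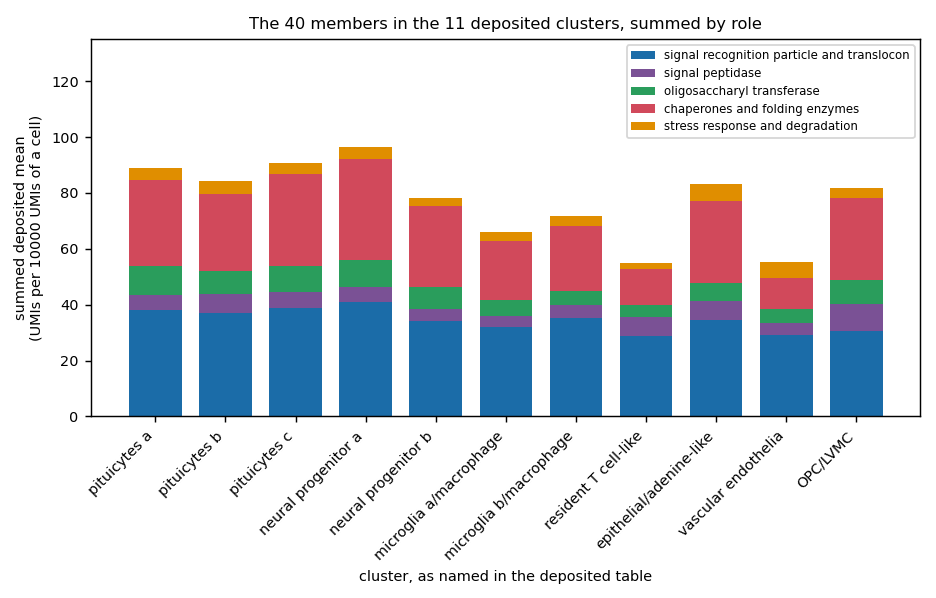
Deposited mean level of the 40 genes, summed by role (stacked bars, in UMIs per 10000 UMIs of a cell), in the 11 clusters as the deposited table names them. The sum runs from 54.9 in the T-cell like cluster to 96.6 in neural progenitor a, with the signal recognition particle and translocon at 41.1 and the chaperones at 36.3 in the latter.

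A further 62 genes of the same pathways served as a wider list, of which 61 were in the matrices and 37 were tested. Between IL cells and pituicytes 5 of the 37 were lower in IL cells (13.5%, beside 13.0% of all genes) and 1 was higher (2.7%, beside 7.98%). The median log2 difference was -0.26. The lower genes were *Ppib* (cyclophilin B, log2 fold change -2.21, SE 0.39, adjusted p = 1.61e-07), *Lman1* (the ERGIC-53 cargo receptor, -2.16, SE 0.36, adjusted p = 4.39e-08), *Stt3b*, a catalytic subunit of the oligosaccharyl transferase, *Txndc5* and *Erp29*. *Lman1* was at 373 and 359 CPM in pituicytes and 74.7 and 88.2 in IL cells, and *Ppib* was at 233 and 331 in pituicytes and 67.6 and 52.1 in IL cells. The higher gene was *Ube2j1*, an E2 enzyme of ER degradation (log2 fold change 2.16, SE 0.66, adjusted p = 0.00672), which had 7 UMIs in pituicytes. Against the mean of the other 3 large types, 9 of the 37 were higher and 1 lower in pituicytes, 7 higher and 2 lower in IL cells, 2 higher and 3 lower in macrophage/microglia and 1 higher and 1 lower in T-cell like cells. In pituicytes the higher share was 24.3%, beside 21.3% of all genes, and in IL cells it was 18.9%, beside 17.1%. The lower share was 2.7% in pituicytes, beside 6.08% of all genes, and 5.41% in IL cells, beside 11%. In macrophage/microglia 5.41% were higher and 8.11% lower, beside 14.7% and 4.5% of all genes. In T-cell like cells 2.7% were higher and 2.7% lower, beside 9.98% and 4.94% of all genes. *Lman1* was also higher in pituicytes than the mean of the other 3 types (log2 fold change 3.00, SE 0.37, edgeR adjusted p = 1.27e-14). That mean takes in only 9 UMIs in macrophage/microglia and 2 in T-cell like cells, so the size of the fold change is uncertain. *Ppp1r15a*, which encodes GADD34 and reverses the stress block on translation, was lower in pituicytes, at 21.2 and 31.6 CPM (log2 fold change -2.32, SE 0.46, adjusted p = 7.24e-06), and higher in macrophage/microglia, at 158 and 250.2 CPM (log2 fold change 1.56, SE 0.39, adjusted p = 0.000724). It was not particular to macrophage/microglia, since T-cell like cells had 109 and 309 CPM, which spans their values. IL cells had 74.7 and 60.1 CPM of *Ppp1r15a*, and vascular endothelia 264 and 801 CPM from 13 UMIs.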

How the data were processed

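The authors sequenced dissociated neurohypophyses of 2 pools as single cells and deposited, per pool, UMI counts per gene and barcode, not normalized (per the methods and the submitters' notes, Cell Ranger with 1500 forced cells and the mm10 build), and a table of mean values for 11 clusters over both pools, on a linear scale of UMIs per 10000 UMIs of a cell. The deposited counts of pool 1 held 737280 barcodes and those of pool 2 held 1500.

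Cells with over 1000 and under 10000 UMIs, over 400 and under 5000 genes and a mitochondrial share under 25% were kept, 273 in pool 1 and 255 in pool 2, with a median of 2050 and 2330.0 UMIs. The pools shared 0 barcodes among the kept cells. Each cell was assigned to a cluster of the authors by non-negative weights in the deposited means, and its weight there was at least 0.98. Of 15025 genes, 349 had a deposited mean over 0.05 away from the mean of the assigned cells. The 11 clusters were merged into the 7 types of the study, which were built with genes that may include members. Scrublet (scanpy 1.11.5) marked 3 doublets in pool 1 and 0 in pool 2, which were kept.

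Counts were summed per pool and type into 14 sums. Types were compared by the quasi-likelihood test of edgeR 4.0.16 under R 4.3.3, on the 4510 genes that passed edgeR's filter (min.count 5, min.total.count 15), scaled by total UMIs, with Benjamini-Hochberg adjustment over all genes tested. A call is an adjusted p of at most 0.05 (common dispersion 0.0368, 7 residual degrees of freedom). The fit was also run on simulated counts with the same dispersion for all genes and no difference between pools. Changes were planted only in genes with many UMIs, so that run does not cover calls that rest on few UMIs. Each type's mean of the other 3 large types is a mean of log values. Fold changes against 1 to 3 UMIs depend on the prior count. Ratios of pooled levels with exact counting intervals at the 95% level are therefore given for *Sec11a*, *Hspa5* and *Ddit3*. For *Hyou1*, *Xbp1*, *Creld2*, *Herpud1* and *Atf4* the result without T-cell like cells is given instead. Intervals cover counting error only, and p-values measure the spread between 2 pools. Sums with the same pool number are paired, since they share mice and library, although their deviations over genes had correlations of only -0.0199 to 0.0679 over the 6 pairs of large types. Alternatives were TMM scaling, DESeq2 1.42.0, no filter on low counts, pool as a block, each pool alone, a fold limit, the 8 large sums only, a mitochondrial share under 10%, clustering without the members (Seurat 5.3.0), doublets left out and T-cell like cells left out of the mean.

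The members and gene lists were chosen with earlier results of these data known. Named in full are members called between IL cells and pituicytes, up to 5 called per direction elsewhere, and the 3 members of each role with the highest mean level. Other members, the *Pdia* genes among them, were named after their values were seen. Gene places are those of RefSeq windows for GRCm38.p6. Promoters of the other 7 members were not analysed here.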

Additional observations from a re-analysis of the deposited data

Results flagged for a closer look

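Barcodes of pool 1 with 1 to 50 UMIs enter no comparison. The 157608 such barcodes held 1892289 UMIs, of which the 40 genes took 4269 CPM, against 7909 CPM in the kept cells of pool 1. This level stands above the limit that a count of 0 allows, since 8079 UMIs lay behind it. *Sec61g* had 749 CPM there, *Sec61a1* 616, *Hspa5* 154, *Manf* 98.3 and *Hyou1* 49.2.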

How the results depend on the processing

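Counts of members called changed with the tool and with the cells kept. DESeq2 called 0 higher and 0 lower between IL cells and pituicytes, 4 higher and 0 lower in pituicytes, 3 higher in IL cells, 1 higher and 0 lower in macrophage/microglia and 0 higher in T-cell like cells. It also called fewer of all genes, 2.33% higher and 3.46% lower between IL cells and pituicytes and 8.6% higher and 4.12% lower in pituicytes. Of all genes it called 8.25% higher in IL cells, 9.0% higher and 1.49% lower in macrophage/microglia and 6.21% higher in T-cell like cells. With a mitochondrial share under 10%, which left 49 of 196 pituicytes and 30 members tested, the counts were 1 and 0 between IL cells and pituicytes, 2 and 0 in pituicytes, 1 and 1 in macrophage/microglia, and 0 higher in T-cell like cells. In IL cells *Hspa5*, *Dad1*, *Hyou1*, *Xbp1*, *Canx* and *Pdia6* were then higher, beside 15.3% of all genes, and in pituicytes 13.3% of all genes were higher and 2.75% lower. Between IL cells and pituicytes 4.57% of all genes were then higher and 9.83% lower. In macrophage/microglia these shares were 16.8% and 4.11%, and in T-cell like cells 12.4% were higher. Without the filter, 2 members were lower between IL cells and pituicytes (5.12% of all genes) and 4 higher in IL cells. In macrophage/microglia 0 were lower (0.75% of all genes), and in T-cell like cells 0 were higher (3.32%). *Hspa5*, *Rpn2*, *Herpud1* and *Dnajb9* were then not called in pituicytes, nor *Ssr4* in macrophage/microglia. Of all genes, 8.68% were then higher in pituicytes, 8.69% in IL cells and 5.44% in macrophage/microglia. TMM gave 2 lower between IL cells and pituicytes (11.7% of all genes) and 0 higher (9.16%) and 4 lower (5.81%) in T-cell like cells. It lost the calls of *Hspa5*, *Rpn2* and *Herpud1* in pituicytes (19.0% of all genes higher) and of *Dnajb9* in macrophage/microglia (2.84% lower). It added *Xbp1* and *Pdia6* in IL cells (18.3% higher). It moved all genes by a median of 0.11 on the log2 scale between IL cells and pituicytes, 0.17 in macrophage/microglia and -0.13 in T-cell like cells. DESeq2 moved them by 0.145 between IL cells and pituicytes, 0.14 in IL cells and -0.12 in T-cell like cells, and took the share of higher calls in pituicytes from 77.8 to 67.6%. The fold limit left 1 lower between IL cells and pituicytes, 3 higher in pituicytes, 2 higher in IL cells and 0 higher in T-cell like cells. T-cell like cells left out of the mean gave 7 higher in pituicytes, 2 higher and 1 lower in IL cells and 10 lower in macrophage/microglia, where 18.2% of all genes were then lower and the share of higher calls went from 76.6 to 48.9%. It moved all genes by -0.12 in pituicytes, -0.14 in IL cells and -0.20 in macrophage/microglia, and turned *Hspa5* in pituicytes to -0.11. Clustering without the members gave 0 higher in T-cell like cells (6.76% of all genes). It added *Pdia6* and *Dnajb11* in pituicytes (21.8% of all genes higher) and *Xbp1* in IL cells (19.9%). The 8 large sums alone added *Dnajb11* in pituicytes (21.0%) and *Xbp1* and *Pdia6* in IL cells (19.4%). Pool as a replicate block gave 2 lower in T-cell like cells (4.55% of all genes) and changed no other count of members called. In a single pool, the median log2 difference of the members ranged from -0.01 to 0.08 between IL cells and pituicytes. None of the 35 calls changed sign in a single pool, and *Creld2* in pituicytes ran from 0.79 to 2.41. By more than the SD of the 2 pools, 6 calls moved without pool 1 and 10 without pool 2. That SD is smallest where the pools agree, so these counts do not measure how stable a call is. The calls were made on these same 2 pools, so their agreement in sign adds no support. In every refit run for their comparison 4 calls stayed past the threshold, *Manf* in pituicytes, *Hspa5* and *Hyou1* in IL cells and *Hspa5* in T-cell like cells. *Herpud1* in macrophage/microglia did so in all but the 10% mitochondrial limit, where it was not tested. Without *Pomc* in the total, the summed level differed from the reported mean by less than 1 SD in each of the 4 large types. IL cells still rose in both pools, to 9460 and 10920 CPM. They then no longer overlapped pituicytes, whose higher value was 9387 CPM, with mitochondrial UMIs still in the totals. The 2 pools and the few UMIs per gene in T-cell like cells limit what could be called, and a member not called is not shown to be alike.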
